A study of Mus musculus with 2 samples.

Results

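Neutrophils were found among brain cells of mice on day 3 of microglial repopulation, after a sort for high CD11b and low CD45, by single-cell 3′ RNA sequencing. They were chosen by their calprotectin transcripts: a barcode counted as a neutrophil when it had at least 500 detected genes, at most 10% of its UMIs in mitochondrial genes, and at least 1% of its UMIs in S100a8 plus S100a9. This gave 164 of the 5127 barcodes within the gene and mitochondrial limits. Of these, 89 of 2301 came from the Hk2 cKO library and 75 of 2826 from the Hk2 fl/fl library. Both libraries were from C57BL/6 mice, and both came through a dissociation that collected mononuclear cells from a Percoll gradient. Hk2 cKO mice carried a tamoxifen-inducible Cre at the Cx3cr1 locus (Cx3cr1CreER) together with floxed Hk2, and Hk2 fl/fl mice carried the floxed gene alone. Cx3cr1 is best known in the brain as a microglial gene, and the driver is used to target microglia and related macrophages, not neutrophils. Tamoxifen was given intraperitoneally on the first postnatal days or as indicated. The sources do not say whether the fl/fl mice received it, how microglia were depleted, how old the mice were or how many contributed to a library. Since each genotype had 1 library, differences between the genotypes have no replicates behind them and were not tested. Values in parentheses after a CPM or a share are 95% exact intervals (Poisson or Clopper-Pearson), which cover counting error only.

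Neutrophils are short-lived white blood cells made in the bone marrow, where granule proteins are made in a fixed order. Promyelocytes make primary granule proteases such as Elane and Mpo, myelocytes and metamyelocytes make secondary granule proteins such as Camp, Ngp and Ltf, and later cells make gelatinase granules and then the receptors with which mature cells find inflamed tissue. S100a8 and S100a9 encode the subunits of calprotectin, a calcium-binding protein that fills the neutrophil cytosol. Retnlg, a resistin-like secreted protein, and Cxcr2, the receptor for neutrophil-attracting chemokines, are transcribed late.

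The promoters of the immature genes Camp, Ngp and Ltf and of the mature gene Retnlg are shown because these genes define the span along which the cells are described. Each runs from 250 bases before to 50 bases after the RefSeq gene start (GRCm38.p6), 5′ to 3′ on the gene's strand. They lie at chr9:109849407-109849706 on the minus strand (Camp), chr9:110419558-110419857 on the plus strand (Ngp), chr9:111019042-111019341 on the plus strand (Ltf) and chr16:48872358-48872657 on the plus strand (Retnlg). Capitals mark matches, on either strand, to TTGCNNAA, the core bound by C/EBP factors, or to GAGGAA, the core bound by ETS factors such as PU.1.
Camp: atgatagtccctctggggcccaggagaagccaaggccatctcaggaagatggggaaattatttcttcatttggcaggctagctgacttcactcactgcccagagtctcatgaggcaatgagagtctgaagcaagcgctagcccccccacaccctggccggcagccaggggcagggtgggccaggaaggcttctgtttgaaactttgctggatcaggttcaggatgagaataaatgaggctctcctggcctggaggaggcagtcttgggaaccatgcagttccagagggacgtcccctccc
Ngp: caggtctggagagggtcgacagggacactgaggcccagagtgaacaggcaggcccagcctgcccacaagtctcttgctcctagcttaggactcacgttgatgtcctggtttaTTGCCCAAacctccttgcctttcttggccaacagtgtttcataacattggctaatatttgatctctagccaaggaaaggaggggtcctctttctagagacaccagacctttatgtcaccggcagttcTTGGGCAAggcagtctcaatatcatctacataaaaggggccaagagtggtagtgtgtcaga
Ltf: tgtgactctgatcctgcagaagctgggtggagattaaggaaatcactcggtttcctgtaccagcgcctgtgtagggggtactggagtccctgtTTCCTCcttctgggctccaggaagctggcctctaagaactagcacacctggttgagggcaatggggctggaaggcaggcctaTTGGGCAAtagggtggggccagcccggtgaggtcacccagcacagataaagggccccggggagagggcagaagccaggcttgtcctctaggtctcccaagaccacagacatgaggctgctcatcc
Retnlg: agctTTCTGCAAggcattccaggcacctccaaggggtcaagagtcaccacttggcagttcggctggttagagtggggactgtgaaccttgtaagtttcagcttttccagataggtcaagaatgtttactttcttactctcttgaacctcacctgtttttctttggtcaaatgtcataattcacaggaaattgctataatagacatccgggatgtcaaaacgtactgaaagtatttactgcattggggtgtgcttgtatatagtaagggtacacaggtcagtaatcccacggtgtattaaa
Ngp had C/EBP letters at positions -138 and -11 relative to the gene start, Ltf at -75 and Retnlg at -246, and Ltf had ETS letters at -157. The Camp window held neither motif. Over all 32851 RefSeq promoters of this length, 10.8% held the C/EBP letters and 28.3% the ETS letters, and no match overlapped another in these windows.

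S100a8 plus S100a9, which chose the cells, took a median of 31.3% of UMIs in cKO neutrophils (1.62 to 49.5%) and 25.2% in fl/fl neutrophils (1.60 to 41.3%), against a median of 0% in the other barcodes of either library. The cells just inside the threshold had shares of 1.62, 3.01 and 3.03% in cKO and 1.60, 1.88 and 2.89% in fl/fl mice. The barcodes just outside had 0.813 and 0.534% in cKO and 0.925 and 0.599% in fl/fl mice, so the threshold fell where few barcodes lay. Of the 6 marker genes, Camp, Ngp, Retnlg and Cxcr2 took no part in the choice of cells. A UMI of these 4 was present in 89 of 89 cKO and 74 of 75 fl/fl neutrophils, and at least 10 were present in 83 cKO and 72 fl/fl neutrophils. The 1 fl/fl cell with none of them had an S100a8 plus S100a9 share of 1.60%, so calprotectin alone made it a member. The 4 genes summed to 52940 CPM (UMIs per 1000000 UMIs) in cKO and 48289 CPM in fl/fl neutrophils, and to 10.4 and 14.3 CPM in the other barcodes of the cKO and the fl/fl library. UMIs were counted from 3′ ends without scaling by gene length, so levels are compared within a gene.

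Beyond the calprotectin genes, the neutrophils differed from the other barcodes by the textbook granule program. The 2-fold limit in both libraries, after adding 10 CPM, was passed upward by 152 of 2693 measured genes (5.64%) and downward by 174 (6.46%); in the microglia-poor cells defined below 200 (7.43%) and 1279 (47.5%) did so. Since the same cells and genes drew the line, these ratios are a description. The genes furthest above the other barcodes were secondary granule genes. Camp, the antimicrobial cathelicidin, had 25581 CPM in cKO and 25504 CPM in fl/fl neutrophils, against 3.73 and 3.91 CPM in the other cKO and fl/fl barcodes. Ngp, a neutrophil granule protein, had 22249 CPM in cKO and 18657 CPM in fl/fl neutrophils, and Lcn2, the iron-siderophore-binding lipocalin, had 8907 and 7947 CPM in cKO and fl/fl neutrophils. They were followed by Ltf (lactoferrin), Retnlg, Wfdc21, G0s2, an inhibitor of triglyceride lipase, Anxa1, Ifitm6 and the collagenase gene Mmp8, whose log2 ratios over the other barcodes ran from 5.94 to 8.91 in cKO and from 5.94 to 8.98 in fl/fl mice. Of 25 measured neutrophil markers 24 were called higher and none lower, the exception being Csf3r, the G-CSF receptor, which had a UMI in 68.5% of cKO and 78.7% of fl/fl neutrophils and also in 65.5% of other cKO and 65.1% of other fl/fl barcodes.

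The shares of cells with a UMI of a granule gene were far above the background of the same libraries. A Camp UMI was present in 76.4% of cKO and 78.7% of fl/fl neutrophils, against 4.84% and 4.94% of other cKO and fl/fl barcodes. Retnlg gave 87.6% in cKO and 81.3% in fl/fl neutrophils, against 1.36% and 1.53% in the others. Ly6g, the antigen used to sort mouse neutrophils, gave 73.0% (62.6 to 81.9) in cKO and 80.0% (69.2 to 88.4) in fl/fl neutrophils, against 0.181% and 0.109%. Median depths were 9772 UMIs in cKO and 8948 UMIs in fl/fl neutrophils, and 11811 and 9974 UMIs in the other cKO and fl/fl barcodes. The background shares thus came from barcodes of equal or greater depth. No barcode was a neutrophil in one library and shared with the other: the libraries had 2 barcode sequences in common, and 0 of them were neutrophils.

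Part of the neutrophil barcodes also carried microglial RNA. P2ry12, Tmem119, Siglech and Fcrls, microglial surface and signature genes, summed to at most 3 UMIs in 64 of 89 cKO neutrophils (71.9%) and 46 of 75 fl/fl neutrophils (61.3%), called microglia-poor below. The remaining 25 cKO (28.1%, 19.1 to 38.6) and 29 fl/fl barcodes (38.7%, 27.6 to 50.6) had at least 9 UMIs of these genes in cKO and at least 7 in fl/fl mice. In the microglia-rich barcodes the 4 genes stood at 2053 CPM in cKO and 1690 CPM in fl/fl, against 2623 and 2584 CPM in the other cKO and fl/fl barcodes. In the microglia-poor cells they stood at 19.3 CPM in cKO and 66.3 CPM in fl/fl. The rich barcodes were also deeper, with medians of 24355 UMIs and 4642 genes in cKO and 15927 UMIs and 3920 genes in fl/fl mice, against 8118.5 UMIs and 1507 genes in cKO and 6859.5 UMIs and 1439.5 genes in fl/fl microglia-poor cells. No doublet caller was run, and whether the rich barcodes held more than 1 cell was not tested. Results are therefore given for all neutrophils and for the microglia-poor cells.

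**Figure D1:**
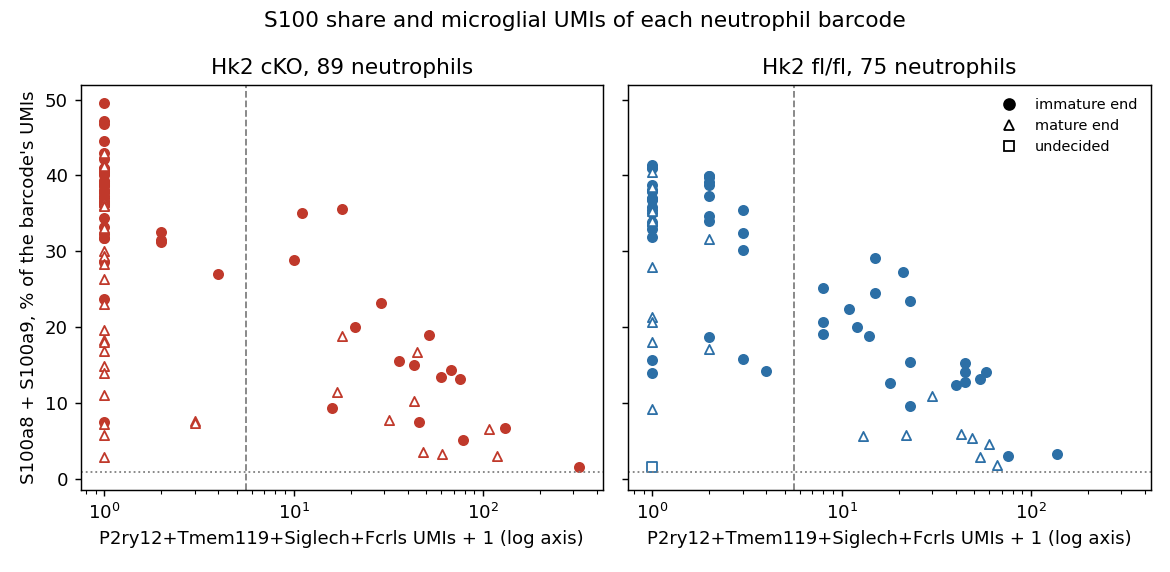
Each point is 1 neutrophil barcode, with its UMIs of P2ry12, Tmem119, Siglech and Fcrls + 1 on the horizontal axis (log) and its share of UMIs in S100a8 plus S100a9 in percent on the vertical axis, for Hk2 cKO on the left and Hk2 fl/fl on the right. Filled circles are immature-end cells, open triangles mature-end cells and the square the cell that could not be placed, as explained with the span; the dotted line marks 1% and the dashed line the split by microglial UMIs. The 25 cKO and 29 fl/fl barcodes with 7 or more microglial UMIs stand apart from the 64 cKO and 46 fl/fl cells with at most 3.

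The lists for B cells, eosinophils, and basophils and mast cells were near or below their level in the other barcodes, or under 12 CPM. Of the B cell list Ms4a1, Ebf1 and Vpreb3 had 0 UMIs in the neutrophils of both libraries, and the list summed to 106 CPM in cKO and 126 CPM in fl/fl neutrophils, against 130 and 121 CPM in the other cKO and fl/fl barcodes. Of the eosinophil list Prg2, Epx, Ccr3 and Prg3 were at 0, and it summed to 11.3 CPM in cKO and 10.8 CPM in fl/fl neutrophils. Of the basophil and mast cell list Mcpt8, Cpa3 and Fcer1a were at 0, and it summed to 5.64 CPM in cKO and 4.31 CPM in fl/fl neutrophils. The T and NK cell list was low but above the other barcodes. Its genes Cd3e, Cd3g, Trbc2 and Gzma were at 0, while Cd3d and Nkg7 gave 27 UMIs in 15 cKO neutrophils and 60 UMIs in 10 fl/fl neutrophils. That made 21.8 CPM in cKO and 64.6 CPM in fl/fl neutrophils, against 0.0964 and 0.0555 CPM in the other cKO and fl/fl barcodes, and 1 barcode held 73.3% of the fl/fl UMIs. The 8 monocyte genes summed to 635 CPM in cKO and 746 CPM in fl/fl neutrophils. The other cKO and fl/fl barcodes had 402 and 357 CPM, so the list lay above them. All 8 genes had UMIs in cKO neutrophils and 6 in fl/fl neutrophils, where F13a1 and Vcan were at 0. Over all neutrophils 1 barcode held 17.0% of the cKO sum and 1 held 21.5% of the fl/fl sum. In microglia-poor cells the list stood at 853 CPM in cKO and 838 CPM in fl/fl. There 1 cKO cell held 30.2% of the cKO sum and 1 fl/fl cell 7.19% of the fl/fl sum. Ccr2, Fn1 and F13a1 each had UMIs in only 1 microglia-poor cKO cell. Genes of MHC class II presentation differed most between the libraries, at 100.0 CPM in cKO and 1732 CPM in fl/fl neutrophils, and 1 fl/fl barcode held 48.4% of the fl/fl sum. Among microglia-poor cells they stood at 15.4 CPM in cKO and 1790 CPM in fl/fl, of which 1 fl/fl cell held 99.2%. Among microglia-rich barcodes they stood at 161 CPM in cKO and 1701 CPM in fl/fl, of which 1 fl/fl barcode held 76.8%. A single microglia-rich and a single microglia-poor barcode thus gave most of the fl/fl sum.

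Neutrophils made up 3.87% (3.12 to 4.74) of the kept cKO barcodes and 2.65% (2.09 to 3.32) of the kept fl/fl barcodes, with intervals that overlapped. Counting microglia-poor cells alone, the shares were 2.78% (2.15 to 3.54) in cKO and 1.63% (1.19 to 2.17) in fl/fl, and these overlapped narrowly. The gate selects for microglia, so both are shares of what passed it and not of brain leukocytes.

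The cells spread from one end of the span to the other in both genotypes. Camp, Ngp and Ltf together had a median of 54493 CPM per cKO cell (0 to 153982) and 68259 CPM per fl/fl cell (0 to 145975). Retnlg and Cxcr2 together had a median of 3285 CPM per cKO cell (0 to 52688) and 1653 CPM per fl/fl cell (0 to 55843). A cell was placed at the immature end when its UMIs of the first 3 genes outnumbered those of the other 2, and at the mature end when the reverse held. This cut sets UMIs of different genes against each other, so the share at each end also depends on how abundant the chosen transcripts are. An end is a side of this cut and not a cell type. The immature end held 56 of 89 cKO neutrophils (62.9%, 52.0 to 72.9) and 54 of 75 fl/fl neutrophils (72.0%, 60.4 to 81.8), with overlapping intervals. The mature end held 33 cKO and 20 fl/fl cells, and 1 fl/fl cell had too few UMIs to place. Among microglia-poor cells the immature share was 62.5% (49.5 to 74.3) in cKO and 71.7% (56.5 to 84.0) in fl/fl, and among microglia-rich barcodes 64.0% in cKO and 72.4% in fl/fl. After each cell was thinned to 2000 UMIs, which left out 5 cKO and 6 fl/fl cells, it was 65.5% in cKO and 72.5% in fl/fl.

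Most cells lay far to one side of the dividing line. Only 8 cKO and 3 fl/fl cells were within 2-fold of the dividing line, while 45 cKO and 47 fl/fl cells had over 10-fold more immature UMIs and 23 cKO and 14 fl/fl cells over 10-fold more mature UMIs. The remaining cells, apart from the 1 fl/fl cell that could not be placed, lay between 2-fold and 10-fold. No Camp, Ngp or Ltf UMI was found in 14 cKO and 8 fl/fl cells, and no Retnlg or Cxcr2 UMI in 10 cKO and 12 fl/fl cells. Over the microglia-poor cells, which share a library but ran from 832 to 36356 UMIs in cKO and from 1184 to 22705 UMIs in fl/fl, Camp and Ngp had a Spearman correlation of 0.91 in 64 cKO cells and 0.61 in 46 fl/fl cells, and Camp and Retnlg one of -0.65 in cKO and -0.57 in fl/fl. Immature-end cells held more RNA, with a median of 9850 UMIs in cKO and 7974 in fl/fl, against 3836 UMIs in cKO and 4429.5 in fl/fl mature-end cells (all microglia-poor).

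**Figure D2:**
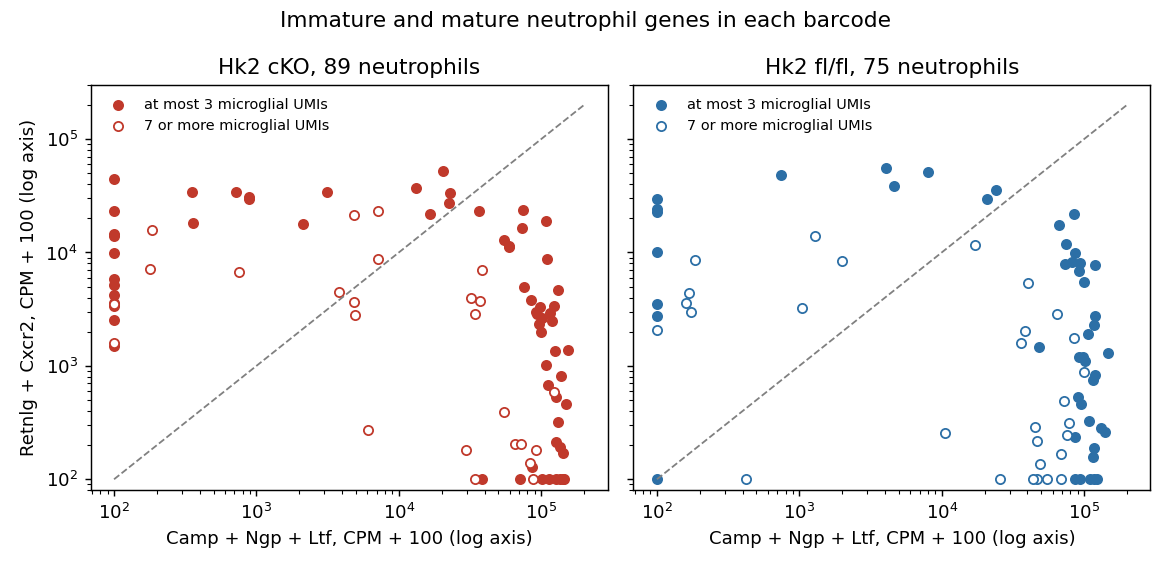
Each point is 1 neutrophil barcode, with Camp plus Ngp plus Ltf on the horizontal and Retnlg plus Cxcr2 on the vertical axis (CPM + 100, log axes), for Hk2 cKO on the left and Hk2 fl/fl on the right; filled points have at most 3 microglial UMIs. The dashed line marks equal values, and 8 cKO and 3 fl/fl cells lay within 2-fold of it.

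Genes other than the 5 that split the cells were then followed along the span in microglia-poor cells, with the immature end set over the mature end. At least 2-fold in both libraries, 100 of 1792 measured genes (5.58%) were higher at the immature end and 287 (16%) higher at the mature end. Over all neutrophils, microglia-rich barcodes included, these numbers were 51 of 2489 (2.05%) and 117 (4.7%). The limit of 50 CPM was set on the mean over both ends and libraries, so a weakly expressed gene could reach it through the end where it was high, and counts over measured genes are a description. Of 10 measured secondary granule genes, 6 were called at the immature end and 0 at the mature end. The other granule lists did not follow them. Of 9 measured tertiary granule and secretory vesicle genes, 0 were called at the immature and 4 at the mature end, with a median log2 ratio of -0.81 in cKO and -1.21 in fl/fl, and of 3 measured primary granule genes 1 was called at each end. Chil3, a chitinase-like protein, had 7810 CPM at the immature and 199 CPM at the mature end in cKO, and 7481 and 390 CPM at the immature and mature end in fl/fl. Fcnb, the ficolin stored in granules, had 387 CPM at the immature end in cKO and 257 CPM in fl/fl, and 0 UMIs at the mature end of both. Of 10 measured granulopoietic transcription factors 1 was called at the immature end and 3 at the mature end, with a median of -0.91 in cKO and -0.90 in fl/fl. The 1 at the immature end was Cebpe. This factor, required for secondary granules, had 347 CPM at the immature end in cKO (UMIs in 36 of 40 cells) and 422 CPM in fl/fl (24 of 33 cells), against 0 CPM at the mature end in cKO (0 of 24 cells) and 43.4 CPM in fl/fl (1 of 12 cells). Cybb, the catalytic subunit of the NADPH oxidase, followed the same order, at 1566 and 283 CPM at the immature and mature end in cKO and 1533 and 260 CPM in fl/fl.

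Among the 10 genes leading the immature end were a pair that act in leukotriene B4 signalling. Lta4h, the enzyme that makes leukotriene B4, had 302 CPM at the immature and 21 CPM at the mature end in cKO, and 246 and 43.4 CPM at the immature and mature end in fl/fl. Ltb4r1, the high-affinity leukotriene B4 receptor, had 377 and 84.0 CPM at the immature and mature end in cKO and 450.0 and 86.7 CPM in fl/fl. Ptgs2, the inducible prostaglandin synthase, ran the other way, at 7.08 and 651 CPM at the immature and mature end in cKO and 10.5 and 217 CPM in fl/fl. Lta4h and Ltb4r1 were thus higher at the immature end, and Ptgs2 at the mature end, in each library.

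Cells with several G2/M transcripts were seen at the immature end of the microglia-poor cells. UMIs of at least 3 of 10 G2/M genes were seen in 5 of 40 immature-end cells in cKO (12.5%, 4.19 to 26.8) and 6 of 33 in fl/fl (18.2%, 6.98 to 35.5). At the mature end they were seen in 0 of 24 cells in cKO, which allows a share of up to 12.5% by 3 counts and 14.2% by the exact interval, and 0 of 12 in fl/fl, which allows up to 25.0% by 3 counts and 26.5% by the exact interval. These limit cells with such UMIs and not cells that divide. A UMI of at least 1 of the 10 genes was present in 17 of 40 immature-end and 3 of 24 mature-end cells in cKO, and in 10 of 33 immature-end and 4 of 12 mature-end cells in fl/fl. Mature-end cells were shallower, with the depths given above, and the part of depth was not tested. Stmn1, a microtubule regulator of dividing cells, had 127 CPM at the immature end in cKO and 292 CPM in fl/fl and 0 UMIs at the mature end of both. Of the 22 cell-cycle genes only 6 were measured. Of these, 5 were called at the immature end, against 5.58% of all measured genes, and 0 at the mature end. A gene such as Stmn1, with 0 UMIs at the mature end, could reach the 50 CPM limit only through the immature end. This count is therefore a description.

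At the mature end, all 12 genes of the mature-neutrophil list apart from the split genes were called in both libraries, against the 16% of all genes. Of 14 measured chemoattractant receptor and adhesion genes, 5 were called there and 1, Ltb4r1, at the immature end. Csf3r had 63.7 CPM at the immature and 1186 CPM at the mature end in cKO, and 127 and 1019 CPM at the immature and mature end in fl/fl. Clec4d, a C-type lectin receptor, had 75.5 and 1176 CPM at the immature and mature end in cKO and 52.7 and 1149 CPM in fl/fl. Il1r2, the decoy receptor for interleukin 1, had 139 and 840 CPM at the immature and mature end in cKO and 172 and 867 CPM in fl/fl. Each of these 3 receptors was low at the immature end and high at the mature end of both libraries.

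Inflammatory transcripts lay on the same side. Of 13 measured genes of the cytokine and NF-kB list, 8 were called at the mature end and 0 at the immature end. Il1b, the precursor of interleukin 1 beta, had 59.0 CPM at the immature end in cKO (UMIs in 8 of 40 cells) and 59.8 CPM in fl/fl (3 of 33 cells), against 3873 CPM at the mature end in cKO (21 of 24 cells) and 3361 CPM in fl/fl (9 of 12 cells). Cxcl2, a neutrophil-attracting chemokine, had 1071 and 7568 CPM at the immature and mature end in cKO and 1069 and 9931 CPM in fl/fl, and Ccl6, another chemokine gene, had 16.5 and 1469 CPM in cKO and 7.03 and 1084 CPM in fl/fl. The survival list holds 12 genes, some of which oppose and some of which promote apoptosis. Of these 5 were measured, and these 5 were called at the mature end. In cKO Mcl1, the anti-apoptotic factor neutrophils depend on, had 684 and 2509 CPM at the immature and mature end. In fl/fl it had 622 and 1540 CPM. Bcl2l11, a pro-apoptotic gene, was also among the 5, at 33.0 and 168 CPM at the immature and mature end in cKO. Its level at the fl/fl mature end was 195 CPM. That list also counts Bcl2a1b, which shares near-identical copies with Bcl2a1a and Bcl2a1d, so its level is uncertain. Stfa2l1, a stefin with close copies, had 37.7 and 588 CPM at the immature and mature end in cKO and 7.03 and 1084 CPM in fl/fl, with the same uncertainty. Ifitm1, an interferon-induced transmembrane protein of a family with close copies, had 2.36 and 273 CPM at the immature and mature end in cKO and 3.52 and 304 CPM in fl/fl.

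**Figure D3:**
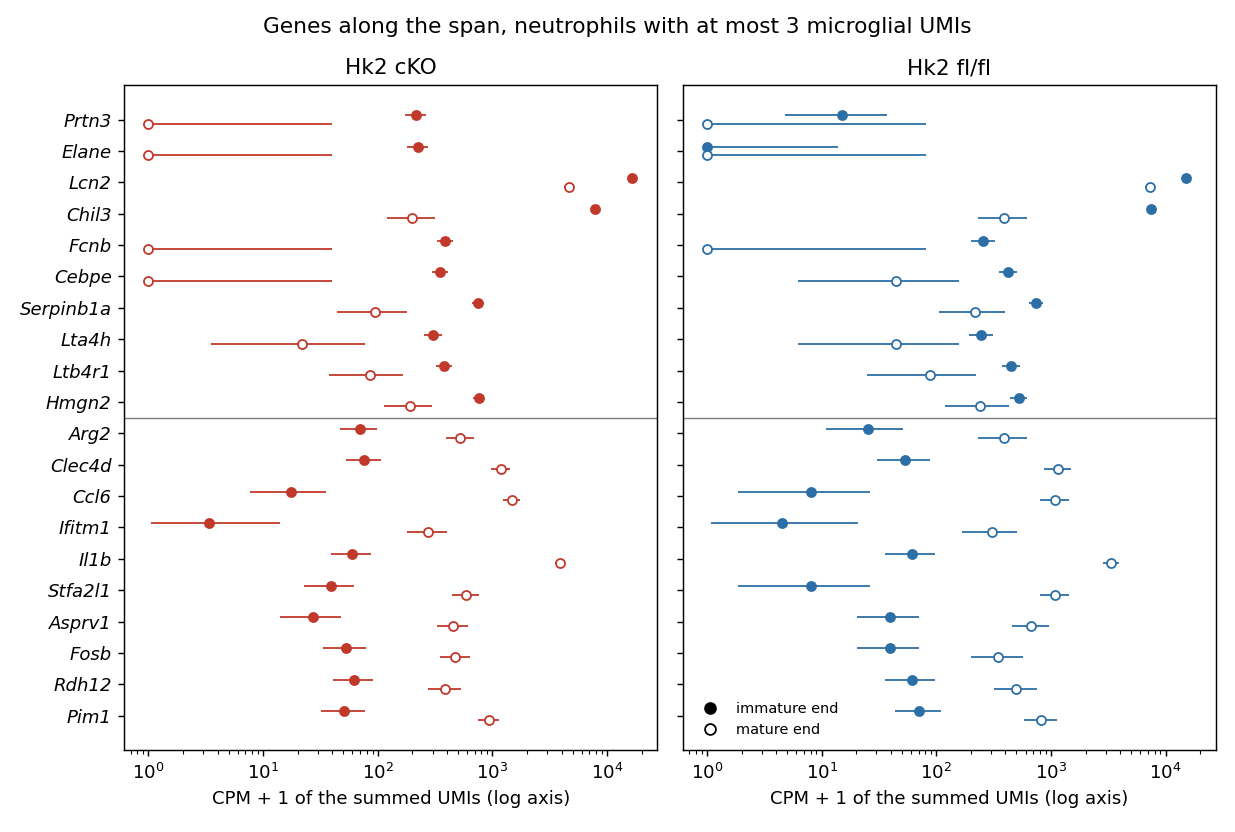
CPM + 1 of the summed UMIs (log axis) of named genes in microglia-poor neutrophils at the immature end (filled) and the mature end (open), for Hk2 cKO on the left and Hk2 fl/fl on the right, with exact Poisson intervals. Chil3, Fcnb and Cebpe are higher at the immature end and Il1b, Ccl6 and Clec4d at the mature end in both libraries.

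Cells with primary granule transcripts were few. More than 3 UMIs of Mpo, Elane, Prtn3 and Ctsg, proteases and peroxidase of the earliest granules, were found in 1 cKO neutrophil and 4 fl/fl neutrophils, all at the immature end. The cKO cell had 195 such UMIs, 0 microglial UMIs, 1978 Camp UMIs and UMIs of all 10 G2/M genes. The fl/fl cells had 1251, 334, 74 and 51 such UMIs and 75, 22, 11 and 13 microglial UMIs, and so none was microglia-poor. The cell with 1251 had 13 Camp UMIs, and its S100a8 plus S100a9 share was 3.03%. Elane thus measured 75.8 CPM in cKO neutrophils, all from 1 cell, and 618 CPM in fl/fl neutrophils, of which 1 cell gave 62.2%.

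Between the genotypes, few genes passed the limits set for a call, which were a ratio of at least 1.5-fold after adding 10 CPM and Poisson intervals that did not overlap. Of 2342 genes that averaged 50 CPM or more, 33 were called higher in cKO neutrophils (1.41%) and 77 lower (3.29%), around a median log2 ratio of -0.06 for all genes. The balance depended on the scaling. With TMM scaling, which moved the median of all genes by 0.12, 70 were higher and 46 lower. With S100a8 and S100a9 left out of the totals 52 were higher and 77 lower, and with per-cell means 105 higher and 128 lower. In microglia-poor cells 22 of 1705 genes were higher (1.29%) and 38 lower (2.23%). Of the 33 higher genes 20 were measured in microglia-poor cells and 7 were called there too. Of the 77 lower genes 43 were measured and 16 were called.

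Of the 10 highest called genes with a UMI in at least 20% of cKO neutrophils, 4 were also called in microglia-poor cells. Ptgs2 had 112 CPM (94.2 to 132) in cKO and 35.6 CPM (24.5 to 49.9) in fl/fl neutrophils, a log2 ratio of 1.42, and 1.46 in microglia-poor cells. Vps37b, a subunit of the ESCRT-I sorting complex, had 216 CPM in cKO and 99.1 CPM in fl/fl, a log2 ratio of 1.05, and 1.18 in microglia-poor cells. Arg2, the mitochondrial arginase, had 95.2 CPM in cKO and 38.8 CPM in fl/fl, a log2 ratio of 1.11, and 0.93 in microglia-poor cells. All 3 were called at the mature end in both libraries. Within microglia-poor mature-end cells Ptgs2 had a log2 ratio of 1.54 and Vps37b one of 1.34, both called. Arg2, at 525 CPM in cKO and 390 CPM in fl/fl, was not called there. Ptgs2 had 62 UMIs in 12 of the 24 cKO cells and 10 UMIs in 6 of the 12 fl/fl cells of that end. For Vps37b these were 132 UMIs in 22 cKO cells and 25 UMIs in 8 fl/fl cells. Ifi27l2a, an interferon-induced gene, had 1622 CPM in cKO and 683 CPM in fl/fl neutrophils, a log2 ratio of 1.24, with 1.48 in microglia-poor, 1.39 in immature-end and 1.37 in mature-end cells, all called. It also differed in the other barcodes, at 3234 CPM in cKO and 1655 CPM in fl/fl.

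The other 6 of the 10 were carried mostly by microglia-rich barcodes, and none was called in microglia-poor cells. Lgals3bp, a secreted glycoprotein, had 203 CPM in cKO and 67.9 CPM in fl/fl neutrophils, but 3.85 CPM in cKO and 6.03 CPM in fl/fl microglia-poor cells. The chemokine gene Ccl12 had 446 CPM in cKO and 200.4 CPM in fl/fl neutrophils, but 17.3 CPM in cKO and 21.1 CPM in fl/fl microglia-poor cells. Bst2, Ifi207 and Cd72 likewise stood at or below 28.9 CPM in the microglia-poor cells of either genotype. Apoe, the lipid carrier, had 757 CPM in cKO and 272 CPM in fl/fl neutrophils, and 1 barcode gave 47.8% of the cKO and 1 gave 42.9% of the fl/fl UMIs; in microglia-poor cells it had 86.7 CPM in cKO and 45.2 CPM in fl/fl. In the other barcodes Lgals3bp stood at 368 CPM in cKO and 164 CPM in fl/fl, Bst2 at 749 and 307 CPM, and Ccl12 at 1150 and 644 CPM, so they differed the same way outside the neutrophils.

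Of the called genes with a UMI in at least 20% of fl/fl neutrophils, the 4 lowest were a pair of MHC class II genes and a pair of cell-division genes. Primary granule genes, which were in fewer cells, are given further on. Cd74, the class II invariant chain, had 82.2 CPM in cKO and 757 CPM in fl/fl neutrophils, and H2-Ab1, a class II chain, had 14.5 CPM in cKO and 329 CPM in fl/fl. In fl/fl mice 1 barcode gave 48.2% of the fl/fl Cd74 UMIs, and 1 microglia-poor cell gave 99.6% of those in fl/fl microglia-poor cells. Top2a, the DNA topoisomerase of dividing cells, had 42.7 CPM in cKO and 122 CPM in fl/fl neutrophils, a log2 ratio of -1.32. Smc2, a condensin subunit, had 36.3 CPM in cKO and 107 CPM in fl/fl, a log2 ratio of -1.33. Both were also called in microglia-poor cells, at -1.01 for Top2a and -1.31 for Smc2. Crip1, Smc6, Trmt112, Tmpo, Cdca8 and Chka had log2 ratios from -1.10 to -1.01 over all neutrophils, and none of them was called in microglia-poor cells, where Smc6, Trmt112 and Cdca8 were under the 50 CPM limit.

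**Figure D4:**
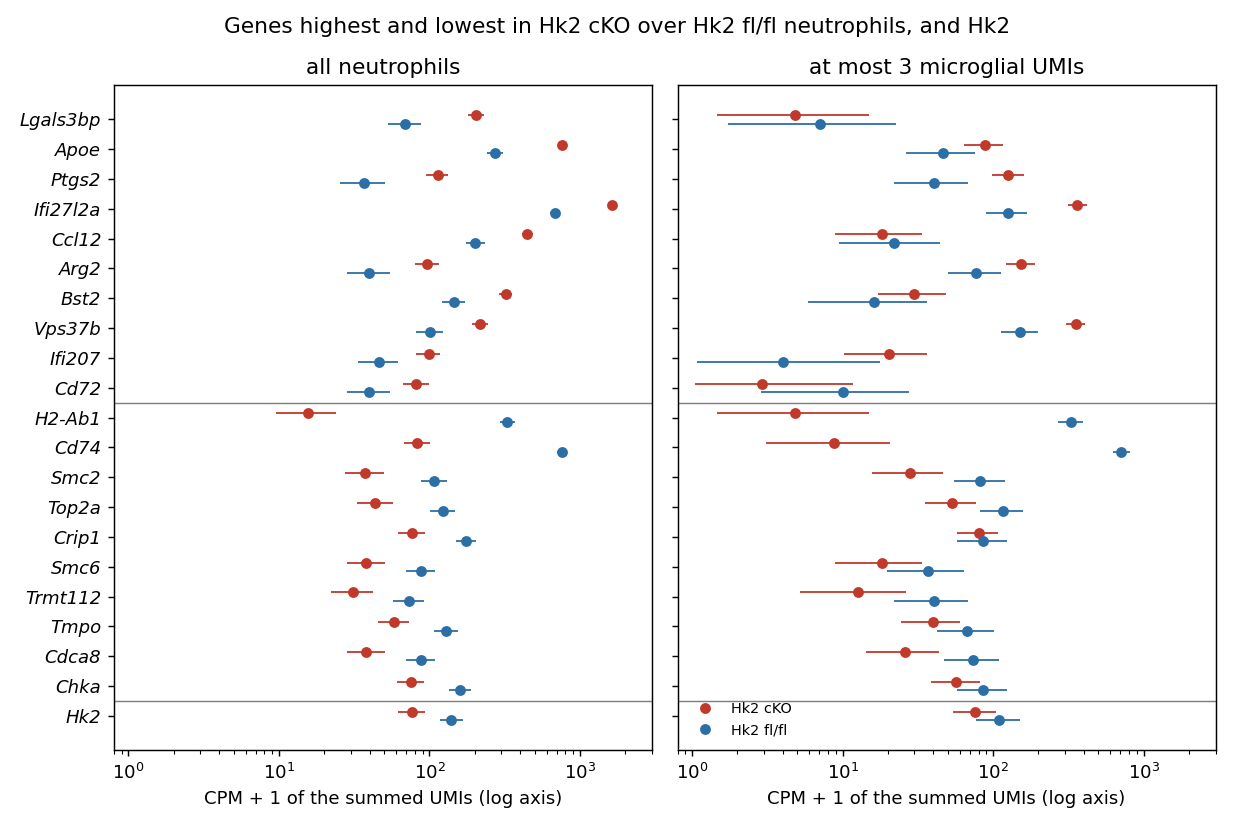
CPM + 1 of the summed UMIs (log axis) with exact Poisson intervals for the 10 highest and 10 lowest named genes and Hk2, Hk2 cKO above Hk2 fl/fl in each row, over all neutrophils on the left and microglia-poor cells on the right. Ptgs2, Ifi27l2a and Vps37b stay apart in both panels, and Lgals3bp and Ccl12 overlap on the right.

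Cell-cycle genes lay lower in cKO neutrophils. All 22 genes of the list had lower values, and of the 13 measured 7 were called lower, against 3.29% of all genes, with a median log2 ratio of -0.64 that stayed between -0.75 and -0.51 under the 4 other scalings. Mki67, the proliferation antigen, had 63.7 CPM in cKO and 133 CPM in fl/fl neutrophils, Stmn1 185 CPM in cKO and 349 CPM in fl/fl, and Ube2c, an ubiquitin enzyme of mitosis, 99.2 CPM in cKO and 163 CPM in fl/fl. A Mki67 UMI was seen in 18.0% of cKO and 28.0% of fl/fl neutrophils. In the other barcodes it was seen in 25.5% in cKO and 33.9% in fl/fl, so its share differed the same way outside the neutrophils. Cells with UMIs of at least 3 of the 10 G2/M genes were 17 of 89 in cKO (19.1%, 11.5 to 28.8) and 24 of 75 in fl/fl (32.0%, 21.7 to 43.8). Most were microglia-rich barcodes, 12 of 25 in cKO and 18 of 29 in fl/fl, and among microglia-poor cells there were 5 of 64 in cKO (7.81%) and 6 of 46 in fl/fl (13%). In microglia-poor cells the list's median was -0.65 with 4 of 12 genes called lower, from few cells, since 1 cKO cell gave 57.4% and 1 fl/fl cell 37.3% of the Stmn1 UMIs. Among microglia-poor cells with 0 UMIs of the 4 microglial genes, the median was 0.05.

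The secondary and tertiary granule lists lay near the centre over all neutrophils. The secondary granule list had a median log2 ratio of 0.03, with 0 of 13 genes called higher and 1 lower, Olfm4, at 76.6 CPM in cKO and 144 CPM in fl/fl neutrophils (log2 ratio -0.83). Olfm4, which marks a subset of neutrophils, was carried by 2 cKO and 3 fl/fl microglia-poor cells. The tertiary granule and secretory vesicle list had a median of 0.14 with 1 of 9 called, the formyl peptide receptor gene Fpr1, at 94.3 CPM in cKO and 55.0 CPM in fl/fl (log2 ratio 0.68). The mature-neutrophil list had a median of 0.26, with 12 of 13 genes higher in cKO and none called, and 0.11 in microglia-poor cells. With per-cell means the secondary granule median was -0.05, so its direction turned. Of 26 neutrophil markers, G0s2 was the one called, at 1193 CPM in cKO and 744 CPM in fl/fl (log2 ratio 0.67). In microglia-poor cells none was called higher and Ly6g was called lower, at 532 CPM (471 to 598) in cKO and 847 CPM (751 to 952) in fl/fl, a log2 ratio of -0.66, with 45 of 64 cKO and 36 of 46 fl/fl cells carrying a UMI.

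The primary granule list turned round with the choice of cells. Its median log2 ratio was -2.87 over all neutrophils, with 5 of 7 genes called lower in cKO, and 1.99 in microglia-poor cells, with 2 of 4 genes called higher. The UMIs behind the first value came mostly from the 4 fl/fl cells described above, and those behind the second mostly from the 1 cKO cell.

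Transcription factor, cytokine and receptor lists held a few calls each. Cebpb, a C/EBP factor of emergency granulopoiesis, had 1105 CPM in cKO and 778 CPM in fl/fl neutrophils and was called higher in microglia-poor cells, at 1770.0 CPM in cKO and 1073 CPM in fl/fl (log2 ratio 0.72). Klf6 was called lower over all neutrophils, at 375 CPM in cKO and 644 CPM in fl/fl, and was not called in microglia-poor cells. Of 14 cytokine and NF-kB genes, 12 had higher values in cKO neutrophils with a median of 0.33, and Ptgs2 was the one called. In microglia-poor cells that median was 0.00, with Ptgs2 and Ccl6 called higher and the chemokine genes Ccl3 and Ccl4 lower. Ccl4 stood there at 88.6 CPM in cKO and 431 CPM in fl/fl, and 1 fl/fl cell gave 82.5% of the fl/fl UMIs. Chemoattractant receptor and adhesion genes had a median of 0.14 with 1 of 14 called higher, and Cxcr2 had 114.5 CPM (96.4 to 135) in cKO and 91.6 CPM (73.2 to 113) in fl/fl neutrophils, with overlapping intervals.

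Of the 27 interferon-response genes 8 were measured over all neutrophils, with a median log2 ratio of 0.20, and Ifi27l2a, Bst2 and Trim30a were called higher and Ifitm1 lower. In fl/fl mice 1 barcode gave 58.5% of the Ifitm1 UMIs, and in microglia-poor cells Ifitm1 had 52.0 CPM in cKO and 51.2 CPM in fl/fl. In microglia-poor mature-end cells 12 were measured, of which 5 reached the limit through cKO with under 50 CPM in fl/fl, and 3 were called higher, against 1.95% of all genes. Ifi27l2a had 798 CPM in cKO and 304 CPM in fl/fl there, and Slfn1, a Schlafen family gene, 304 CPM in cKO and 65.0 CPM in fl/fl. Isg15 had 178 CPM in cKO, from 17 UMIs in 4 of 24 cells, and 0 UMIs in fl/fl. It was among the 5 that reached the limit through cKO. That group held 24 cKO and 12 fl/fl cells. A UMI of Isg15, a ubiquitin-like interferon-induced protein, was seen in 8 of 64 microglia-poor cKO cells (12.5%, 5.55 to 23.2) and 2 of 46 fl/fl cells (4.35%, 0.531 to 14.8). Over all neutrophils the share was 24.7% in cKO and 12.0% in fl/fl. In the other barcodes it was 48.0% in cKO and 16.2% in fl/fl, so the neutrophil shares lay below those of the barcodes around them. The other barcodes were deeper, with medians of 11811 UMIs in cKO and 9974 in fl/fl, against 8118.5 and 6859.5 UMIs in microglia-poor cells. The part of depth was not tested here.

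**Figure D5:**
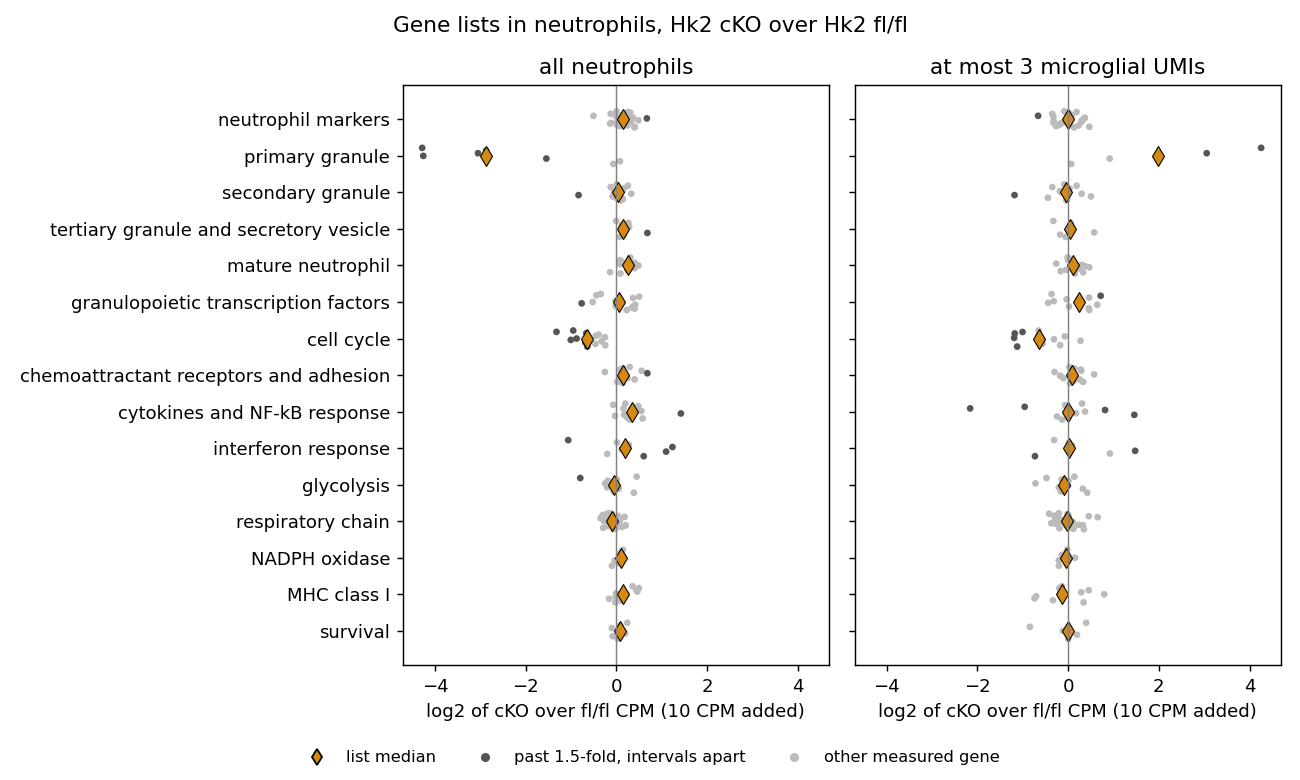
Log2 ratio of Hk2 cKO over Hk2 fl/fl (10 CPM added) for each measured gene of the 15 lists, over all neutrophils on the left and microglia-poor cells on the right, with diamonds at list medians. The cell-cycle median is -0.64 on the left and -0.65 on the right, and the primary granule median is -2.87 on the left and 1.99 on the right.

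Hk2, hexokinase 2, the floxed gene (ENSMUSG00000000628, chromosome 6, 82725025 to 82774454, GRCm38), was lower over all neutrophils, at 75.8 CPM (61.2 to 92.8, 94 UMIs) in cKO and 139 CPM (116 to 165, 129 UMIs) in fl/fl, a log2 ratio of -0.80. In microglia-poor cells it had 75.1 CPM (53.4 to 103) in cKO and 108 CPM (76.0 to 150) in fl/fl, with overlapping intervals. At the immature end it had 82.6 CPM in cKO and 87.9 CPM in fl/fl. At the mature end it had 42.0 CPM in cKO (4 UMIs) and 65.0 CPM in fl/fl (3 UMIs). The 108 CPM in fl/fl lay above both fl/fl ends, so the 1 unplaced fl/fl cell, with 1309 UMIs of all genes, raised it. In the other barcodes Hk2 stood at 44.7 CPM in cKO and 164 CPM in fl/fl. An Hk2 UMI was seen in 48.3% of cKO and 58.7% of fl/fl neutrophils, and in 33.9% of other cKO and 73.6% of other fl/fl barcodes. Tags from the 3′ end need not lie in the floxed part, which the sources do not give, so the level of Hk2 reports transcript and not recombination. Hk3, the hexokinase of myeloid cells, had 116 CPM in cKO and 115 CPM in fl/fl neutrophils, and Hk1 had 17.7 CPM in cKO (22 UMIs) and 32.3 CPM in fl/fl (30 UMIs).

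The metabolic lists held no other call. Of 13 glycolysis genes, 0 were called higher and Hk2 alone lower, with a median log2 ratio of -0.06 that turned to 0.07 with TMM scaling, and in microglia-poor cells 0 of 13 were called. Gapdh had 1697 CPM in cKO and 1843 CPM in fl/fl neutrophils, and Slc2a3, the neuronal and leukocyte glucose transporter, 140.3 CPM in cKO and 100.2 CPM in fl/fl. Of 36 respiratory-chain genes none was called, with a median of -0.10, and 0.02 with TMM scaling. The NADPH oxidase genes, which make the superoxide burst, had a median of 0.09 with 0 of 7 called. MHC class I genes, whose family members share reads, had a median of 0.15 with 0 of 10 called, and survival genes one of 0.08 with 0 of 7 called. Both the NADPH oxidase and the class I median turned slightly negative with per-cell means.

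Taking each end on its own, microglia-poor immature-end cells had 9 of 1609 genes called higher in cKO (0.559%) and 39 lower (2.42%), and mature-end cells 37 of 1900 higher (1.95%) and 14 lower (0.737%). At the mature end the secondary granule list had a median log2 ratio of -0.54 with 3 of 11 measured genes called lower, against a median of 0.11 for all genes. The 3 were Lcn2, Hp and Ltf. Ltf is a split gene, as are Camp and Ngp of the same list, so these genes also helped to set that end. Ltf had 588 CPM in cKO and 1149 CPM in fl/fl, and 1 fl/fl cell gave 51 of the 53 fl/fl UMIs. At the mature end 5 of 26 neutrophil markers were called lower in cKO, Ltf again among them. Lcn2 had 4671 CPM in cKO and 7329 CPM in fl/fl, and Slpi, a protease inhibitor, 2372 and 3816 CPM. Ly6g had 178 CPM in cKO (17 UMIs in 11 of 24 cells) and 694 CPM in fl/fl (32 UMIs in 5 of 12 cells). Atf3, a stress-induced transcription factor, had 483 CPM in cKO (UMIs in 12 of 24 cells) and 0 CPM in fl/fl (0 of 12 cells) at that end, and 14.2 CPM in cKO and 10.5 CPM in fl/fl at the immature end. Whether a difference between genotypes was larger at one end than at the other was not tested.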

How the data were processed

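Single-cell 3′ libraries, 1 per genotype, were made with the 10x Genomics v3 chemistry, per the labels' protocols. The authors deposited raw UMI counts per gene and barcode, without normalization. They came from bcl2fastq and Cell Ranger 3.1.0 on GRCm38, per the submitters' processing notes. Which annotation was counted against is a point not given in the sources used here. Every one of the 55450 gene identifiers matched GENCODE M21, taken for coordinates. Libraries were assigned by their genotype labels.

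Counts were summed over the neutrophils of each library (1240208 UMIs in cKO, 928177 in fl/fl) and divided by the sum to CPM. Ratios are on the log2(CPM + 10) scale, so differences of weakly expressed genes appear smaller than they are. A gene was measured when it averaged 50 CPM or more. A genotype call needed a 1.5-fold ratio and Poisson intervals that did not overlap; a call along the span, or against the other barcodes, needed 2-fold in both libraries. Placing a cell along the span needed at least 3 UMIs of the 5 split genes. Cells were thinned to 2000 UMIs for the depth check. Microglia-poor meant at most 3 UMIs of 4 microglial genes, a limit set after seeing the data. The intervals assume independent UMIs and do not cover the spread between cells or mice. Genes are named when they chose or split the cells, are hexokinases, are among the 10 highest or lowest called ratios in at least 20% of cells (without mitochondrial, ribosomal protein, haemoglobin, sex-linked, Gm or Rik and microglial marker genes), stand out in 1 of 15 fixed lists, or lead the comparison with other barcodes or the span. Atf3, C1qb, Csf3r, Il1r2, Isg15, Slfn1, Slpi and Ube2c, among others from the fixed lists, are named outside this rule, after their values were seen. The members and lists were chosen with earlier results of these data known. The steps were checked on simulated data. Sums and intervals were computed with scipy 1.17.1, numpy 2.4.6 and pandas 2.3.3 under Python 3.11.15, and figures with matplotlib 3.10.9; TMM factors, an alternative, came from edgeR 4.0.16 in R 4.3.3. Promoters are RefSeq's (GRCm38.p6), matched by symbol for all 4 genes.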

Additional observations from a re-analysis of the deposited data

Results flagged for a closer look

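Some barcodes outside the gene and mitochondrial limits also held a neutrophil share of calprotectin transcripts. At least 1% of UMIs in S100a8 plus S100a9 was found in 3 of 306 such cKO barcodes and 4 of 263 such fl/fl barcodes, which no comparison above uses. Their median share was 35.9% in cKO and 32.8% in fl/fl mice.

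In microglia-poor cells 2 genes had immature over mature log2 ratios of opposite sign in the 2 libraries. Atf3 had an immature over mature log2 ratio of -4.35 in cKO and 1.04 in fl/fl. C1qb, a complement gene and microglial marker, had one of -1.02 in cKO and 1.77 in fl/fl. The fl/fl mature end held 12 cells, with 0 UMIs of Atf3 and C1qb UMIs in 2 of the cells. Atf3 was also low at the fl/fl immature end, so its fl/fl ratio was set largely by the 10 CPM added. That ratio therefore does not place Atf3 at either end in fl/fl. The difference between the genotypes was not tested for either gene.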

How the results depend on the processing

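No paired analysis was possible because there was 1 library per genotype and the labels carry no replicate numbers. The neutrophil share and the immature share stayed within their intervals under all alternatives run on them. Against 33 genes higher and 77 lower in cKO neutrophils, the counts were 70 and 46 with TMM scaling, 105 and 128 with per-cell means, 60 and 131 with the limit lowered to 20 CPM, 82 and 183 with no filter on the mean, and 9 and 39 at the microglia-poor immature end. Without S100a8 and S100a9 in the totals 52 were higher; 24 were lower in cells with no microglial UMI, 38 in cells with at most 3, and 14 at the microglia-poor mature end. The alternatives with at most 3 microglial UMIs were chosen after seeing the data. Of the named genes' log2 ratios under alternatives, 1157 moved by less than the counting interval, 277 moved further and 22 reversed; of list medians 193 held, 26 moved and 6 reversed.

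With an S100a8 plus S100a9 share of at least 10%, Crip1 reversed to 0.61, Mpo to 0.27, Prtn3 to 0.77 and Ifitm1 to 0.71. With no microglial UMI, the primary granule median was 2.40 and the cell cycle median 0.051. There Lgals3bp was -0.64, Cd74 0.70, Crip1 1.80, Chka 0.0948, Mpo 1.62, Ctsg 0.50, Prtn3 3.22, Elane 4.36, Pclaf 0.26 and Mki67 0.38. With at most 3 microglial UMIs, the primary granule median was 1.99, Lgals3bp -0.21, Ccl12 -0.19, Cd72 -0.67, Mpo 1.55, Ctsg 0.47, Prtn3 3.06, Elane 4.26 and Ifitm1 0.018. At the microglia-poor ends the primary granule median was 2.10 (immature) and 0.36 (mature) and the cell cycle median 0.063 (mature). These alternatives leave fewer cells; other causes were not tested. Depth limits the mature end most, with 95275 UMIs in cKO and 46120 in fl/fl mice.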
